A study of Homo sapiens with 6 samples.

Results

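The 10 genes studied here belong to the intermediate filament family and were followed in HEK-293T, an established line from human embryonic kidney, in cells that expressed either GFP or GFP-tagged RfA1, a squid reflectin. They were chosen by name and all 10 were among the 16655 genes of the expression table. VIM, encoding vimentin, is the mesenchymal type; NES (nestin), INA (internexin alpha), NEFL, NEFM and NEFH (the light, medium and heavy neurofilament subunits) are the neuronal type; KRT8, KRT18 and KRT19 are keratins of simple epithelia; and LMNB1 encodes the nuclear lamin B1. The control cells carried no-load pEGFP-C1 (genotype control) and the other cells carried pEGFP-C1-RfA1, with 3 libraries in each group. Both groups were lipofected under a Lipo3000 protocol and harvested by trypsin after 24 h, so transfection and GFP were common to them. Whether the replicates were separate transfections is not stated, and p-values measure the spread between libraries, which may be technical. No sorting for GFP is described, so cells that took up no plasmid may be included, and in such bulk RNA fewer expressing cells and less RNA per cell cannot be told apart.

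Intermediate filaments are ropes of coiled-coil dimers that give cells mechanical strength. Keratins are obligate heteropolymers of a type I chain (KRT18, KRT19) and a type II chain (KRT8), whereas vimentin polymerizes on its own and the neurofilament chains assemble together, with INA, in axons. Nestin marks neural progenitors and joins vimentin in mixed filaments, and lamins form the meshwork under the inner nuclear membrane. The question posed by the comparison is whether RfA1, whose effect on the cytoskeleton the study examined, changed the mRNA of these filaments.

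All family members end their rod in a closely related coiled-coil stretch, and the coding sequence of that stretch is shown because it places the genes beside each other. Each run below holds 30 bases of coding sequence, 5′ to 3′ on the strand of the gene, read from GENCODE 29 transcripts on GRCh38, and capitals mark the bases that differ from VIM. The VIM stretch lies in exon 7 of 10 at chr10:17235355-17235384 on the plus strand, and that of KRT8 in exon 7 of 9 at chr12:52898684-52898713 on the minus strand. KRT18 holds it in exon 6 of 7 at chr12:52952305-52952334 on the plus strand, KRT19 in exon 6 of 6 at chr17:41523782-41523811 on the minus strand, and LMNB1 in exon 6 of 11 at chr5:126819108-126819137 on the plus strand. In INA it is split by an intron between exons 2 and 3 of 3, within chr10:103287152-103288381 on the plus strand. In NES it is split between exons 2 and 3 of 4, within chr1:156673506-156675223 on the minus strand.
VIM: acctacaggaagctgctggaaggcgaggag
KRT8: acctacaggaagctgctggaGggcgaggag
KRT18: acctacCgCCGCctgctggaagATgGCgag
KRT19: acctacCgCaGCctgctCgaGggACaggaA
LMNB1: GcTtacaggaaActCTtAgaaggcgaAgaA
INA: GcTtacaggaaActgctggaaggcgaggag
NES: acGtacaggaCCctCctggaGgCTgagAaC
KRT8 differed from VIM at 1 of the 30 bases, INA at 3, LMNB1 at 8, and KRT18, KRT19 and NES at 9 each. The intron within the stretch was found in all 5 neuronal genes, NEFL, NEFM and NEFH included, and in none of the other 5.

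The libraries held between 10272306 and 11566284 estimated counts. They differed in how counts depended on the GC content of transcripts. Log2 CPM (counts scaled to library size), minus the mean of each gene over the 6 libraries, was regressed on GC. Its slope, per 10 percentage points, was -0.038, 0.13 and 0.081 in GFP replicates 1, 2 and 3. It was -0.11, 0.091 and -0.15 in RfA1 replicates 1, 2 and 3. GFP replicates 2 and 3 and RfA1 replicate 2 thus had positive slopes and the other 3 libraries negative ones. These slopes are relative to the mean library, so both signs must occur and neither is the GC bias of a library by itself. Each group held libraries of both signs. As a check of the cell label, kidney development genes were present at a summed level of 95.2 to 98.3 TPM (transcript abundance scaled for length and library size) in GFP cells and 90.8 to 103 TPM in RfA1 cells, with 6 of 8 at 1 TPM or more and SIX2 at 52.3 to 62.3 TPM. Of the neuronal markers, 6 of 12 reached 1 TPM, with sums of 244 to 252 TPM in GFP cells and 252 to 261 TPM in RfA1 cells, most of it UCHL1 (202 to 223 TPM). RBFOX3 (13.7 to 18.3 TPM), TUBB3 (9.13 to 11.97 TPM), SYP (6.6 to 8.21 TPM), GAP43 and SYT1 were the others at 1 TPM or more, whereas MAP2, DCX, STMN2, ELAVL3, ELAVL4 and SNAP25 stayed at or below 0.34 TPM. Epithelial markers summed to 19.8 to 22.6 TPM and 21.4 to 23.9 TPM, with 5 of 11 at 1 TPM or more and CDH1 (E-cadherin) at no more than 0.15 TPM. Mesenchymal markers summed to 119.9 to 132 TPM and 126 to 148 TPM, with 9 of 10 at 1 TPM or more, and none of 6 markers of other cell types reached 1 TPM.

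VIM was by far the most abundant of the 10. Its level was 578, 693 and 669 TPM in the GFP libraries and 666, 724 and 615 TPM in the RfA1 libraries, and in GFP cells 98.8% of the genes of the table were lower. TPM is scaled for transcript length, so genes can be ordered on it. VIM made up 62.0% to 64.4% of the summed TPM of the 9 cytoplasmic members in every library. The share was 62.8%, 62.5% and 62.3% in GFP cells and 64.4%, 62.0% and 63.8% in RfA1 cells, so the groups overlapped.

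Of the epithelial keratins, the KRT8 and KRT18 pair was abundant and KRT19 was at or near 0 in all but 1 library. KRT8 read 152, 187 and 182 TPM in GFP cells and 165, 204 and 150.0 TPM in RfA1 cells. KRT18 read 93.0, 108 and 103 TPM in GFP cells and 91.8, 116 and 90.9 TPM in RfA1 cells. The type II chain stayed above its type I partner in all 6 libraries, at a ratio of 1.71 ± 0.068 in GFP cells and 1.74 ± 0.078 in RfA1 cells (SD, n = 3). KRT19, which pairs with KRT8 in ductal epithelia, had 29 counts in all, 25 of them in GFP replicate 2, where its level was 2.59 TPM. In each of the other 5 libraries it stayed at or below 0.21 TPM. It had 0 counts in GFP replicate 1 and RfA1 replicate 2. The 3 counts that an observed 0 allows correspond there to 0.272 and 0.279 CPM, counting error only, a unit not scaled for transcript length as TPM is.

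Of the neuronal members, NEFM and NEFL were abundant and NEFH was at or near 0. NEFM was 48.7, 61.1 and 62.2 TPM in GFP cells and 56.5, 66.2 and 54.9 TPM in RfA1 cells. NEFL was 42.7, 49.6 and 51.7 TPM in GFP cells and 47.9, 51.3 and 46.3 TPM in RfA1 cells. The medium chain exceeded the light chain in every library, by a ratio of 1.14 to 1.29, although the ranges of the levels overlapped in GFP cells. NEFH, the heavy chain of mature axons, was listed at 0 in the 3 GFP libraries and had 1 count in each of 2 RfA1 libraries. NES was low, at 4.22, 5.67 and 5.49 TPM in GFP cells and 5.32, 5.27 and 4.89 TPM in RfA1 cells. INA was lower still, at 1.72, 1.33 and 1.33 TPM in GFP cells and 1.47, 1.74 and 1.41 TPM in RfA1 cells, on 30 to 41 counts a library.

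LMNB1 stood at 111, 96.2 and 93.5 TPM in GFP cells and 109, 93.1 and 104 TPM in RfA1 cells. In GFP cells the order of levels was VIM, KRT8, KRT18, LMNB1, NEFM, NEFL, NES, INA, KRT19 and NEFH. KRT18 and LMNB1 overlapped, NEFM and NEFL overlapped, and INA, KRT19 and NEFH each overlapped with the next, while the other neighbours were separated in every GFP library.

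**Figure D1:**
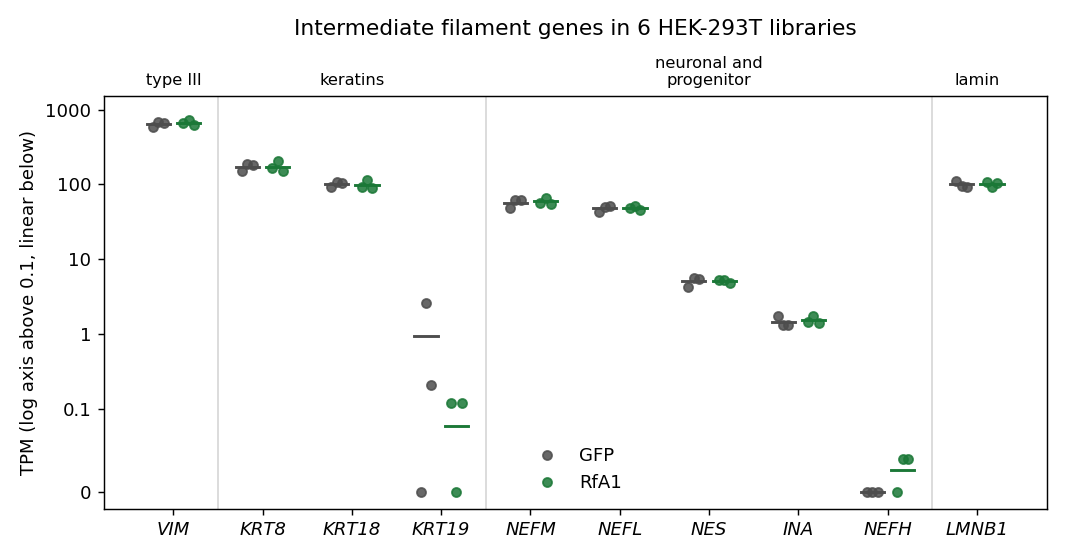
Level of each intermediate filament gene in TPM, on an axis that is logarithmic above 0.1 and linear below, with 1 point per library (3 GFP, 3 RfA1) and a line at the group mean. VIM lies highest at 578 to 724 TPM, KRT8, KRT18, LMNB1, NEFM and NEFL lie between 42.7 and 204 TPM, NEFH lies at or near 0, and KRT19 does so in all libraries but GFP replicate 2.

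mRNA of both the epithelial and the neuronal type was thus present, and the epithelial sum exceeded the neuronal sum in every library. Protein and filaments were not measured in these libraries. KRT8, KRT18 and KRT19 summed to 245, 298 and 285 TPM in GFP cells and 257, 319 and 241 TPM in RfA1 cells. The 5 neuronal genes summed to 97.3, 118 and 121 TPM in GFP cells and 111, 125 and 107 TPM in RfA1 cells. The epithelial to neuronal ratio was 2.47 ± 0.094 in GFP cells and 2.37 ± 0.17 in RfA1 cells (SD, n = 3), with values of 2.52, 2.53 and 2.36 against 2.31, 2.56 and 2.24. The groups overlapped in both sums and in the ratio. VIM alone exceeded the epithelial sum in every library.

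For several members the counts could include reads of related genes. Cut into 50-base words, the transcript of KRT8 shared 41.3% of its words with other genes, all of them in KRT8 pseudogenes, and that of KRT18 shared 47.6%, of which 31.8% of all words lay in KRT18 pseudogenes. GENCODE 29 lists 50 pseudogenes of KRT8 and 67 of KRT18, and none is a row of the table. KRT8 and KRT18 also overlap each other by 525 exon bases on opposite strands, and VIM, NEFL, NEFM and NEFH overlap antisense genes that have no row. The shares were 38.2% for VIM, 41.9% for NEFM and 10.9% for NEFL, and 0 for INA, NES and LMNB1. The strand setting of the counting is not given in the sources used here, so the levels of KRT8, KRT18, VIM, NEFM and NEFL are uncertain to that extent.

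No member passed the test for a change with RfA1. With edgeR's quasi-likelihood test, 0 of the 8 members that passed the filter on low counts had an adjusted p under 0.05, beside 0.0769% of the 13002 genes tested (8 higher and 2 lower), and 0 of 8 had an unadjusted p under 0.05, beside 13.9% of genes. KRT19 and NEFH did not pass the filter. Of the 8 fitted log2 fold changes, RfA1 against GFP, 7 were negative and 1 positive, beside 6563 negative and 6439 positive over all genes tested. Their median was -0.040 beside -0.0024 over all genes tested. Several of these signs were reversed in other settings, given below. The TPM ranges of the groups overlapped for all 10 members, whereas 15.4% of the genes tested had ranges that did not overlap.

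The intervals limit how large a change could have gone unseen. For VIM the log2 fold change was -0.011 (SE 0.11, 95% interval of the fold 0.839 to 1.17, adjusted p = 0.967 by edgeR). For KRT8 it was -0.059 (SE 0.14, 0.774 to 1.19, adjusted p = 0.865 by edgeR) and for KRT18 -0.083 (SE 0.13, 0.776 to 1.15, adjusted p = 0.782 by edgeR). The fold intervals were 0.826 to 1.14 for NEFL, 0.815 to 1.21 for NEFM, 0.784 to 1.19 for NES and 0.861 to 1.10 for LMNB1. INA, on few counts, had the widest, 0.741 to 1.40. An exact two-sided permutation test on TPM, which cannot go below p = 0.1 with 3 against 3 libraries, gave 0.4 or more for each of the 10 genes.

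**Figure D2:**
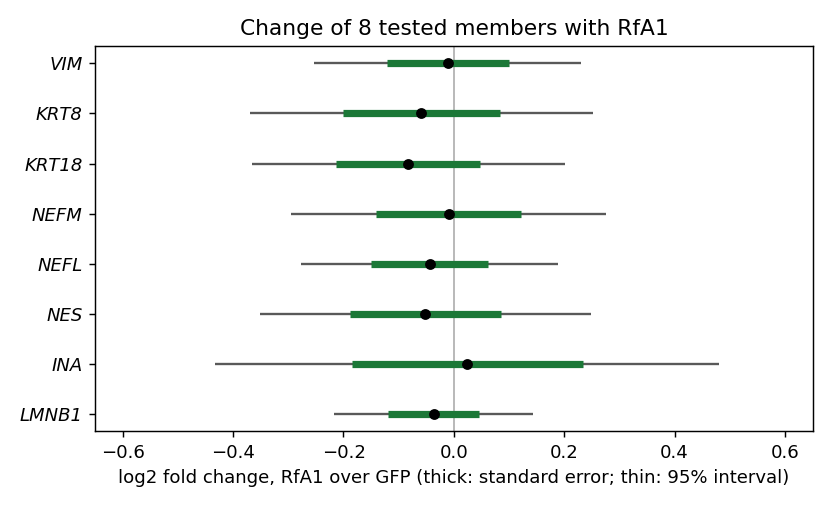
Log2 fold change of each of the 8 tested members, RfA1 over GFP, with thick bars for the standard error and thin bars for the 95% interval. Every interval spans 0, and the widest is that of INA, whose fold ranges from 0.741 to 1.40.

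The members did move between libraries, in a pattern that crossed the groups. GFP replicates 2 and 3 and RfA1 replicate 2 were the 3 highest libraries, on log2 CPM, for VIM, KRT8, KRT18, NEFM, NEFL and NES, 6 of the 8 tested members. KRT8, for example, deviated from its mean over 6 libraries by -0.19, 0.19 and 0.10 log2 CPM in GFP replicates 1, 2 and 3, and by -0.13, 0.30 and -0.28 in RfA1 replicates 1, 2 and 3. NEFM deviated by -0.26, 0.15 and 0.13 in GFP cells and by -0.10, 0.25 and -0.16 in RfA1 cells. LMNB1 spread least, from -0.082 to 0.13, and INA was high in GFP replicate 1 (0.20) and RfA1 replicate 2 (0.29). GFP replicates 2 and 3 and RfA1 replicate 2 are also the libraries with positive GC slopes relative to the mean library. The part of GC content in the pattern was not tested. Transcript GC content was 54.1% for VIM, 53.4% for KRT8, 57.0% for KRT18, 54.0% for NEFM and 59.3% for NES, beside a mean of 50.02% for the genes tested, but 48.2% for NEFL, which followed the pattern as well. It was 50.8% for INA and 47.7% for LMNB1, which did not.

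**Figure D3:**
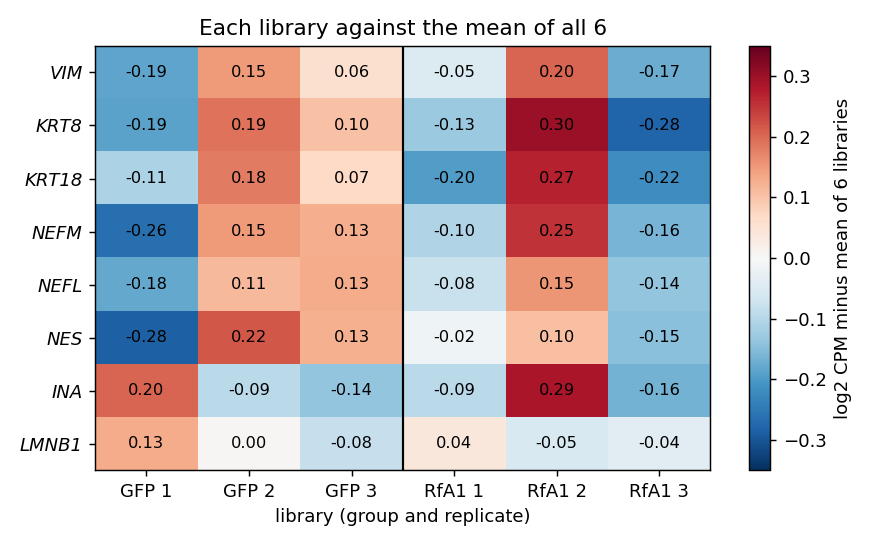
Heat map of log2 CPM minus the mean over the 6 libraries, with a row per tested member and a column per library, red above the mean and blue below. GFP replicates 2 and 3 and RfA1 replicate 2 are highest for VIM, KRT8, KRT18, NEFM, NEFL and NES, while LMNB1 stays between -0.082 and 0.13.

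A member was called in 1 of the alternative fits. Without RfA1 replicate 2, KRT18 fell by 0.26 on the log2 scale with an adjusted p of 0.0428 by edgeR, and KRT8 read -0.25 with an adjusted p of 0.0625 by edgeR, but 20.1% of all genes tested were then called, so that 1 of 8 members is not above the background. With all 6 libraries and an offset for GC content, KRT18 read 0.0079 and KRT8 -0.017, with 0 members called. Of the genes tested, TRIP10 (a CDC42-binding adaptor protein), RPL12 (a ribosomal protein) and CAPN15 (a calpain-like protease) had log2 CPM most like KRT18 over the 6 libraries, with Pearson r of 0.999, 0.997 and 0.997. As 1174 of 13001 genes exceeded an r of 0.9 with KRT18, and all share the same libraries, this is a description of the library pattern.

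Beyond the 10, the table held 21 more genes of the 70 listed as intermediate filament genes, and 7 of them averaged 1 TPM or more in a group. LMNA, the A-type lamin, was close to LMNB1 in level, at 99.8, 132 and 128 TPM in GFP cells and 97.9, 140.2 and 91.5 TPM in RfA1 cells, with a log2 fold change of -0.16 (adjusted p = 0.671 by edgeR). LMNB2, the second B-type lamin, was at 113 ± 7.70 TPM and 119 ± 8.89 TPM (SD, n = 3), a log2 fold change of 0.017 (SE 0.10). KRT10, a keratin of differentiating epidermis, was the largest change in the family, at 21.5 ± 2.41 TPM and 18.4 ± 2.20 TPM, and its log2 fold change of -0.28 did not pass (adjusted p = 0.377 by edgeR). The peripheral neuron filament PRPH was at 2.80 ± 0.087 and 2.75 ± 0.42 TPM, the lens filament BFSP1 at 5.10 ± 0.67 and 5.84 ± 1.2 TPM, the muscle proteins SYNM at 1.36 ± 0.26 and 1.54 ± 0.12 TPM and DES (desmin) at 1.04 ± 0.42 and 1.0 ± 0.24 TPM. The other 14 averaged under 1 TPM, so that of 17 keratins in the table KRT8, KRT18 and KRT10 reached 1 TPM on average. The highest value of these 14 in any library was 1.84 TPM, for KRT5 in GFP replicate 2. KRT5 had 31 counts there and at most 2 in any other library. KRT23 had 14 counts (1.14 TPM) there and at most 1 in any other. GFP replicate 2 was also the library in which KRT19 was highest, whereas KRT7 was highest in GFP replicate 3 (13 counts). The cause was not tested. None of the 15 family members that could be tested was called, beside 0.0769% of all genes tested. None had an unadjusted p under 0.05 by edgeR, beside 13.9% of genes. The 15 include the 8 members reported above, and all share the same libraries, so this is a description only.

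**Figure D4:**
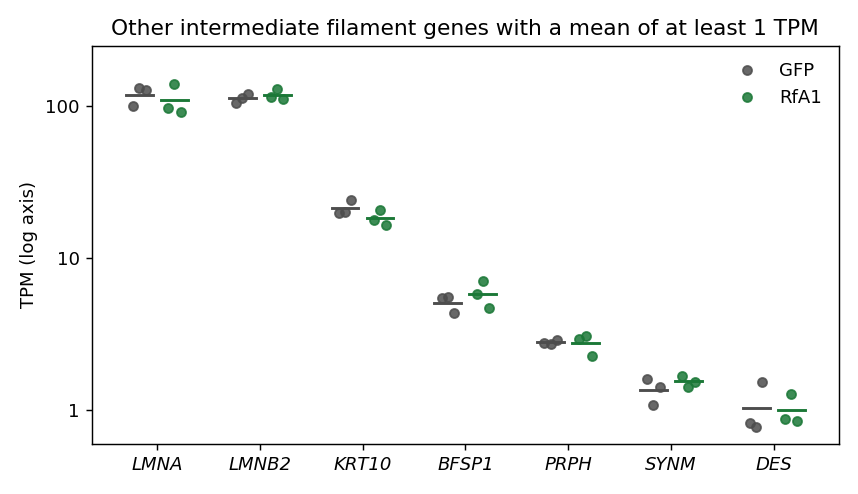
Level in TPM, on a log axis, of the 7 other family genes that averaged 1 TPM or more, with 1 point per library (3 GFP, 3 RfA1) and a line at the group mean. LMNA and LMNB2 lie between 91.5 and 140.2 TPM, KRT10 follows, and the points of the groups overlap for every gene.

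The proteins that work with intermediate filaments were also taken as lists. Linkers were a mixed list that held junction proteins, such as JUP, and keratin-binding ones, such as TCHP. Of 14 listed, 13 were in the table and 10 were tested, with 0 called. Of the 10, 2 were lower at an unadjusted p under 0.05 by edgeR, beside 863 lower among the 13002 genes tested and 13.9% in either direction. The median log2 fold change was -0.041, beside -0.0024 for all genes. FAM83H, which recruits casein kinase to keratins, was 5.27, 6.41 and 5.83 TPM in GFP cells and 4.91, 5.42 and 4.42 TPM in RfA1 cells, with a log2 fold change of -0.30 (adjusted p = 0.349 by edgeR). TCHP, trichoplein, a keratin-binding protein picked here after its values were seen, was 20.9, 22.5 and 20.5 TPM in GFP cells and 18.1, 18.0 and 17.6 TPM in RfA1 cells (log2 fold change -0.20, adjusted p = 0.354 by edgeR), so that its groups did not overlap. JUP, junction plakoglobin, was the most abundant linker at 67.1 ± 5.61 TPM and 60.8 ± 5.91 TPM, with a log2 fold change of -0.20 that did not pass.

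Of the lamina partners, all 15 were tested, 0 were called and 1, TOR1AIP2, a nuclear envelope protein, was higher at an unadjusted p under 0.05, beside 949 higher among the 13002 genes tested and 13.9% in either direction. TOR1AIP2 was 8.38, 7.98 and 7.71 TPM in GFP cells and 10.1, 9.28 and 10.7 TPM in RfA1 cells, with a log2 fold change of 0.26 (SE 0.082, adjusted p = 0.260 by edgeR). Its groups did not overlap. BANF1, which bridges chromatin and the lamina, was the most abundant at 490.1 ± 34.2 TPM and 482 ± 61.0 TPM. The lamin-processing enzymes (5 tested, 0 called) included ICMT, which methylates prenylated lamins, at 38.1 ± 2.09 and 44.4 ± 4.28 TPM, and FNTA, the farnesyltransferase alpha subunit, at 43.7 ± 3.91 and 49.6 ± 3.35 TPM.

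Among chaperones of filaments, DNAJB6, a co-chaperone that keeps keratins from aggregating, was 159.5, 148 and 151 TPM in GFP cells and 185, 165 and 173 TPM in RfA1 cells. Its groups did not overlap, and its log2 fold change of 0.17 (SE 0.074) did not pass (adjusted p = 0.340 by edgeR).

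**Figure D5:**
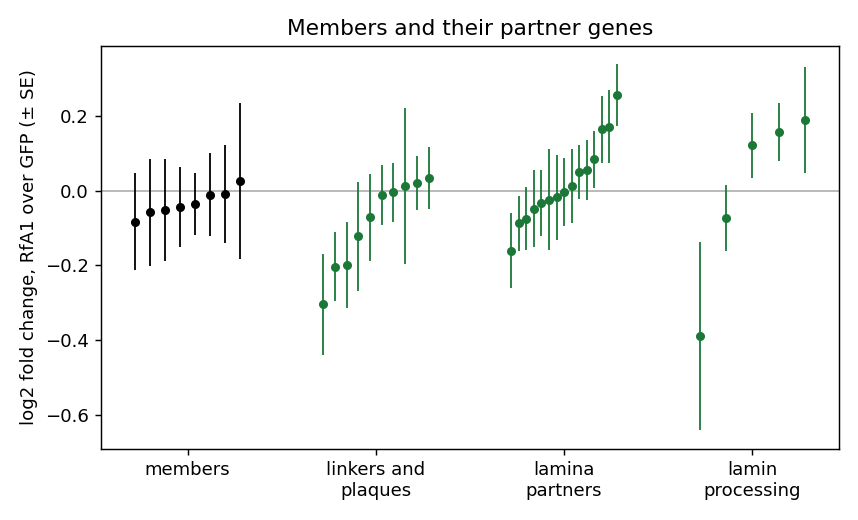
Log2 fold change, RfA1 over GFP, with standard error bars, of the 8 tested members (black) and of the linker, lamina and lamin-processing genes (green), each list sorted by value. None was called by edgeR after adjustment over 13002 genes; the rightmost lamina gene is TOR1AIP2 at 0.26.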

How the data were processed

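The authors deposited 1 table of 16655 genes with estimated counts, FPKM and TPM for 6 libraries, the estimated counts not being whole for 7.39% to 8.02% of values. Per the labels' processing notes the reads were aligned with HISAT to GRCh38.p13, while the counting tool, its annotation and its strand setting are not given in the sources used here. TPM as deposited was used for levels, FPKM only for the ratio alternative, and the deposited columns of group means were not used. Estimated counts were rounded and tested with edgeR 4.0.16 (filterByExpr, minimum count 10 and total 15, TMM, robust quasi-likelihood, Benjamini-Hochberg adjustment over 13002 genes, adjusted p under 0.05) in R 4.3.3, with biological coefficient of variation 8.83%. DESeq2 1.42.0 and limma 3.58.1 (on log2 TPM plus 1 or 0.1), other scalings, filters, a GC offset and leaving out each library were alternatives. In simulated data of 13002 genes with 200 changed 1.5-fold, 89.5% were recovered and 3.76% of calls were false. The simulation drew every gene independently with the same coefficient of variation, and held no GC slope or shared library pattern. Its changed genes came only from those with higher counts, which left out INA. The recovered share is therefore not the power in the real libraries, which did differ in GC slope. Transcripts and positions came from GENCODE 29. Named were all members, other family genes at 1 TPM or more, the gene with the smallest p and the most abundant gene of each partner list, and the 3 genes most correlated with the member of smallest p. The members and lists were chosen with earlier results of these data known.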

Additional observations from a re-analysis of the deposited data

How the results depend on the processing

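No member was called in any setting but 1, the fit without RfA1 replicate 2 (KRT18, adjusted p = 0.0428 by edgeR; the range over leaving out each library was 0 to 1 members). Genes called numbered 10 (8 higher and 2 lower), 6 (4 higher and 2 lower) with upper quartile scaling, 33 (17 and 16) with DESeq2, 20 (12 and 8) without the filter, 625 (309 and 316) with the replicate block, 4 (all higher) with limma on log2 TPM plus 1 and 4 (all higher) plus 0.1, 207 (147 and 60) with the GC offset, 453 (301 and 152) with the GC offset and the replicate block, and 1812 (949 and 863) at an unadjusted p under 0.05. When 1 library was left out they ranged from 0 to 2636, the latter (1124 higher and 1512 lower) without RfA1 replicate 2 and the other 5 fits at 4 or fewer. The causes were not tested. Whether replicate numbers pair the libraries was not settled, as correlations of deviations were 0.166, 0.321 and -0.143 for replicates 1, 2 and 3. The replicate block is therefore a check only, and it called 0 members. The sign of small changes was not stable. With the GC offset, NEFM read 0.042, NES 0.078, VIM 0.042 and KRT18 0.0079, and with the replicate block as well 0.043, 0.081, 0.041 and 0.0034. On log2 TPM plus 1, NEFL read 0.017, NEFM 0.049, NES 0.016, VIM 0.049 and LMNB1 0.027, and plus 0.1, 0.018, 0.050, 0.020, 0.049 and 0.027. The median over all genes tested was 0.045 with plus 1 and 0.052 with plus 0.1, beside -0.0024 in the main edgeR fit. NEFL, NES and LMNB1 thus lay below the median of all genes, and NEFM and VIM close to it. By total library size, NEFM read 0.0050 and VIM 0.0036, beside a median of 0.014 over all genes tested. Without each library in turn, log2 fold changes ran from -0.12 to 0.14 for INA, -0.26 to 0.0015 for KRT18, -0.25 to 0.057 for KRT8, -0.085 to 0.019 for LMNB1, -0.14 to 0.013 for NEFL, -0.15 to 0.068 for NEFM, -0.19 to 0.049 for NES and -0.12 to 0.068 for VIM. The epithelial to neuronal ratio in GFP cells kept its value within 1 SD under FPKM and leaving out each library. Depth limits INA most, and KRT19 and NEFH were too low to test.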

Other observations

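Of the 11 epithelial markers in the table, 5 were tested and 0 were called by edgeR, beside 0.0769% of all genes tested. EPCAM, 1 of the 5, had an unadjusted p under 0.05 by edgeR, beside 13.9% of genes. The values were examined before these genes were picked. EPCAM, an adhesion protein of epithelia, was 1.76, 1.91 and 1.78 TPM in GFP cells and 2.90, 2.87 and 3.49 TPM in RfA1 cells, with a log2 fold change of 0.69 (SE 0.22, adjusted p = 0.259 by edgeR). MUC1, a mucin of epithelial surfaces, lay the other way, at 4.48, 3.09 and 3.72 TPM in GFP cells and 2.74, 2.85 and 2.63 TPM in RfA1 cells (log2 fold change -0.32, adjusted p = 0.435 by edgeR). The tight junction genes CLDN7, TJP1 and OCLN read 0.34, 0.094 and -0.062 on the log2 scale. The groups did not overlap in TPM for EPCAM, CLDN7 and MUC1, 3 of the 5 tested, beside 15.4% of all genes tested.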
